A study of Arabidopsis thaliana with 21 samples.

Results

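The genes described here are 9 genes of xylem vessel formation in Arabidopsis thaliana: the NAC factors VND6 (AT5G62380) and VND7 (AT1G71930), the MYB factors MYB46 (AT5G12870) and MYB83 (AT3G08500), the secondary wall cellulose synthases CESA4 (AT5G44030), CESA7 (AT5G17420) and CESA8 (AT4G18780), and the cysteine proteases XCP1 (AT4G35350) and XCP2 (AT1G20850). They were chosen by name, with earlier results of these data known. They are 9 of the 33602 genes in the count files, and all 9 were among the 26074 genes that passed the filter on low counts. RNA was sequenced from root protoplasts, which are cells freed of their walls by enzymes, sorted by the fluorescence of a reporter, in 21 libraries of 6 reporter lines. All seedlings were 5 days old, and the series text names the sorted cells as protophloem sieve elements, which are the first cells of a root to conduct sugars. The 9 genes are therefore markers of another cell type than the one that was sorted, and the question is in which lines, and at what level, their RNA was found.

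Each line is named by the promoter that drives its reporter. NAC57 stands for pNAC57::2GFP pCALS7::H2B-RFP (n = 3, numbered 1, 2 and 4) and NAC73 for pNAC73::H2B-YFP pS32::erRFP (n = 4). CALS7 stands for the line titled CALS7, whose construct is spelled pCASL7::H2B-YFP pS32::erRFP in the labels (n = 4). CVP2-DBOX is pCVP2::DBOX-3YFP (n = 4), PEAR1-DBOX is pPEAR1::DBOX-3xYFP (n = 2, numbered 3 and 5) and PEAR1 is pPEAR1::3xYFP (n = 4). A destruction box (DBOX) is a short peptide that targets a protein for breakdown when cells leave mitosis, which makes the reporter that carries it short-lived. Every line carries a fluorescent reporter and none is an unsorted or reporter-free control. The sorted colour of the lines with 2 reporters, the background accession, and whether libraries of a line came from separate plantings are not stated, so p-values measure only the spread between these libraries, which may be technical, and promoter, line, gate and handling cannot be told apart.

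Library totals ran from 23513921 to 36198012 counts, and 16916 to 30620 genes had a count in a library. All 10 sieve element markers had counts in 20 of the 21 libraries, and their summed level was 1099 to 36610 CPM (counts relative to library size, scaled by the trimmed mean of M values, TMM), highest in NAC73 and CALS7. The gene NAC057 was lowest in the line labelled NAC57, at 21.1 ± 9.62 CPM, against 679 ± 238 CPM in NAC73, 435 ± 28.7 CPM in CALS7, 60.1 ± 6.21 CPM in CVP2-DBOX, 35.1 ± 25.8 CPM in PEAR1-DBOX and 71.8 ± 13.96 CPM in PEAR1 (SD), so that label is kept here only as a name. Replicate libraries of a line differed well beyond counting error.

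Xylem vessels are dead, hollow tubes with thickened walls. VND6 and VND7 are master switches of that fate, VND7 chiefly of protoxylem and VND6 of metaxylem, and each can turn other cells into vessel-like cells. They act through MYB46 and MYB83, which can stand in for each other in switching on the wall programme. CESA4, CESA7 and CESA8 form the cellulose synthase complex of the secondary wall and are all needed for it, while XCP1 and XCP2 digest the cell contents after the vessel has died. Protophloem sieve elements lie in the same vascular cylinder, keep a living protoplast and do not form lignified vessels.

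The genes were placed on the RefSeq TAIR10.1 assembly. VND6 lies at chr5:25050152-25052054 on the plus strand, VND7 at chr1:27074702-27077991 (plus), MYB46 at chr5:4062666-4065075 (minus) and MYB83 at chr3:2576444-2578276 (minus). CESA4 lies at chr5:17714390-17719723 (plus), CESA7 at chr5:5736630-5741500 (minus) and CESA8 at chr4:10312624-10316886 (minus). XCP1 lies at chr4:16810482-16812077 (plus) and XCP2 at chr1:7252111-7253747 (plus). No exon stretch of 50 bases of any of the 9 genes was found elsewhere in the genome, so reads of that length separate them from their relatives.

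Promoters were searched over 250 bases before each gene's annotated start, on both strands, for 3 motifs described for vessel genes. TERE, the tracheary element-regulating element of 11 letters, was found before 2 of the 9 genes, CESA4 and XCP1, and before 0.368% of 27443 promoters. The secondary wall NAC binding element (SNBE) was found before 7 of 9 genes and before 42.6% of promoters, and the MYB46 element SMRE (ACC followed by A or T, then A, then A or C, then T or C) before 3 of 9 and before 29.4%. Over 1000 bases TERE was again before 2 of 9 genes, against 1.45% of promoters, SNBE before 7 of 9 against 87.3% and SMRE before 7 of 9 against 73.2%, so SNBE and SMRE were near the background there. The TERE match of XCP1 ends 65 bases before the start and overlaps an SNBE match on each strand, and that of CESA4 ends 10 bases before the start and overlaps no other match. The promoters of XCP1 and XCP2 are printed because the 2 genes had the highest mean levels per length of the 9 in PEAR1 and are paralogs, and the CESA4 stretch because it holds the other match. XCP1 covers chr4:16810232-16810481, XCP2 covers chr1:7251861-7252110 and the CESA4 stretch covers chr5:17714361-17714389, all on the plus strand, 5′ to 3′, with the TERE match in capitals. XCP2 has no TERE match in this window, and the CESA4 stretch lies inside the annotated span of its neighbour AT5G44020. A match is a description of the letters and not a bound site.
XCP1: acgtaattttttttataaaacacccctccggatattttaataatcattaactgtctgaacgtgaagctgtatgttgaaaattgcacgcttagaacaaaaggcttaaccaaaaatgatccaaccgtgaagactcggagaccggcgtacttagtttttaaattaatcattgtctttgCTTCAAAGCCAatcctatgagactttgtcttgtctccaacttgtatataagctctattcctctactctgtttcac
XCP2: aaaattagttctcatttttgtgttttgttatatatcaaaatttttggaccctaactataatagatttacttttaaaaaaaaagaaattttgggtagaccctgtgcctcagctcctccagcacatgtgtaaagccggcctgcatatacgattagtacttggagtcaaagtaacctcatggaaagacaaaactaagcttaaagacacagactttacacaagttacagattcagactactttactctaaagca
CESA4: acataataaCTTGAAAGCTActctaagtt

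The 9 genes were at low levels in every line, and each had its highest line mean in PEAR1. Their summed level was 7.35, 6.10 and 7.84 CPM in NAC57, 0.822, 13.5, 10.2 and 19.0 CPM in NAC73 and 13.5, 17.9, 37.8 and 21.9 CPM in CALS7. It was 5.78, 12.01, 9.42 and 7.48 CPM in CVP2-DBOX, 12.6 and 70.0 CPM in PEAR1-DBOX, and 157, 19.8, 87.6 and 89.0 CPM in PEAR1. PEAR1 2 lay near the CALS7 libraries, and PEAR1-DBOX 3 near the CVP2-DBOX libraries, so neither PEAR1 nor PEAR1-DBOX was uniform. All 9 genes had counts in each PEAR1 library and in PEAR1-DBOX 5, whereas PEAR1-DBOX 3 had 4 and NAC73 1 had 1 of the 9. The number of all genes with a count differed between lines too, at 20416 to 22103 in NAC57, 16916 to 19644 in NAC73, 23756 to 27560 in CALS7, 25088 to 28134 in CVP2-DBOX, 22747 and 28322 in PEAR1-DBOX 3 and 5 and 29449 to 30620 in PEAR1. TMM factors were 0.503 to 0.786 in NAC73, against 0.895 to 1.36 in the other lines, and the part of these differences in the zeros was not tested. PEAR1 2 was the lowest PEAR1 library for 7 of the 9 genes and PEAR1 1 the highest for 7. In bulk samples, fewer cells of a type and less RNA per cell cannot be told apart.

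**Figure D1:**
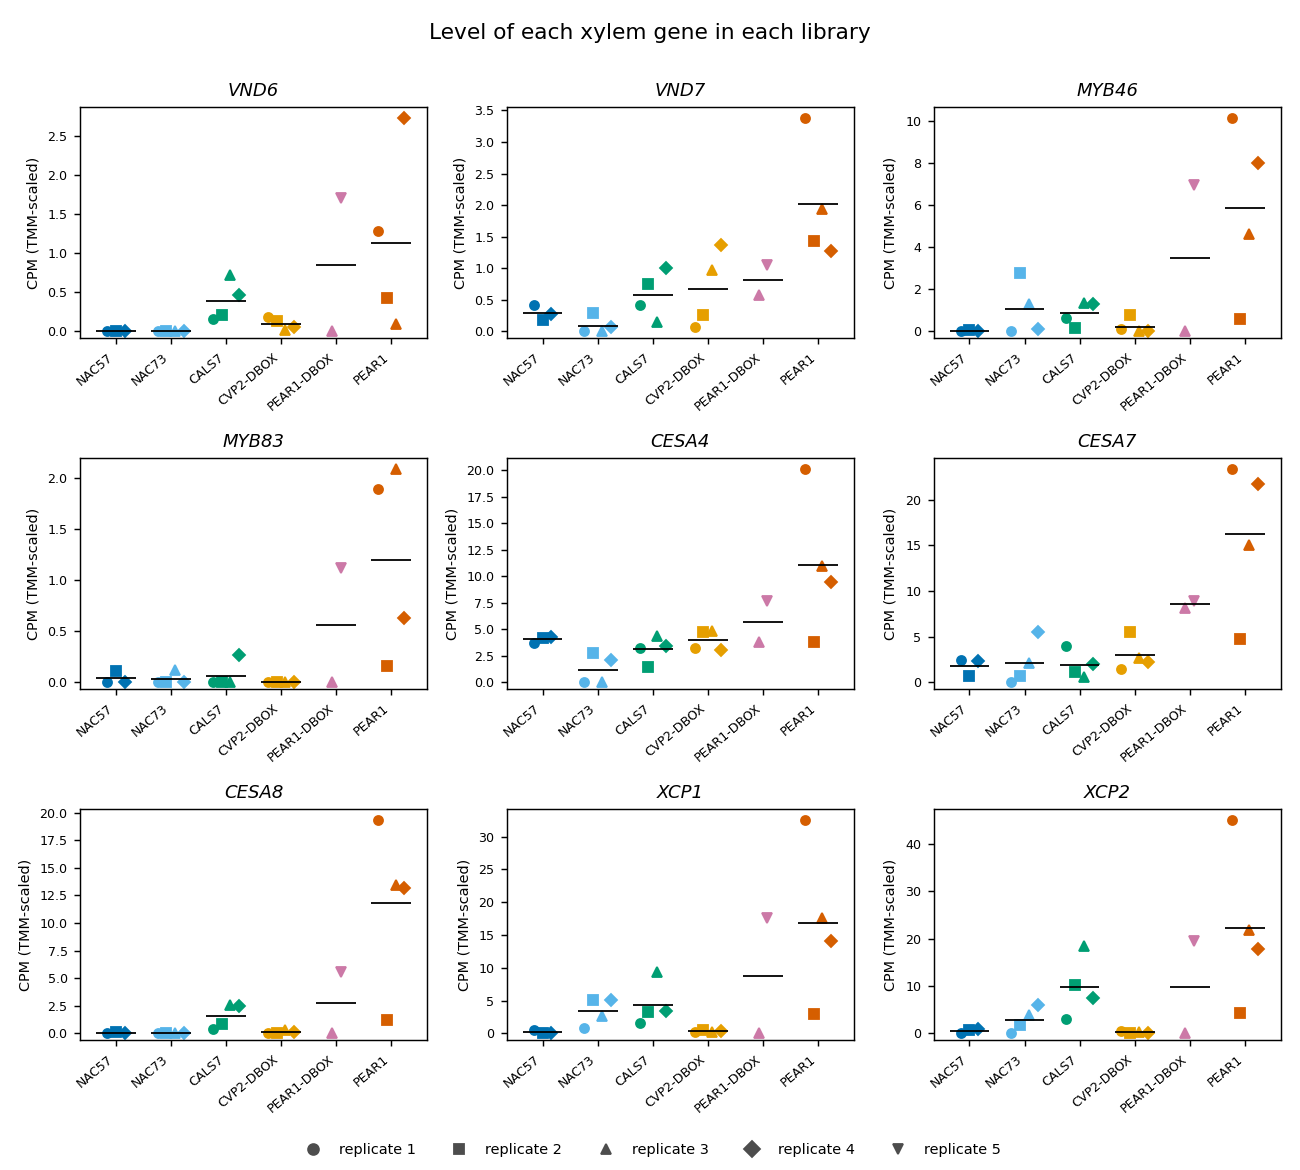
TMM-scaled CPM of each of the 9 genes in every library, by line, with a point for each library and a bar at the line mean. The PEAR1 libraries are highest for most genes and spread widely, from 1.23 to 19.4 CPM for CESA8.

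A test of any difference among the 6 lines called 8 of the 9 genes, all but CESA4, in edgeR's quasi-likelihood test at an adjusted p of 0.05 (Benjamini-Hochberg), and it called 74.4% of all genes tested, so a call in it says little about these genes. The smallest adjusted p was that of CESA8 (0.000159). The adjusted p of CESA4 was 0.0865. Without PEAR1 1 it called 7 of the 9, with VND7 no longer past the threshold, and without NAC73 2 it called all 9.

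Both VND factors reached at most 3.38 CPM in any library. VND6 had no count in any of the 3 NAC57 and 4 NAC73 libraries. It reached 0.159, 0.209, 0.726 and 0.471 CPM in CALS7 and 0.181, 0.134, 0.0243 and 0.0516 CPM in CVP2-DBOX, against 1.28, 0.425, 0.0994 and 2.73 CPM in PEAR1. PEAR1-DBOX 3 was at 0 and PEAR1-DBOX 5 at 1.70 CPM. VND6 thus had the range of PEAR1 overlapping those of CALS7, CVP2-DBOX and PEAR1-DBOX but not those of NAC57 and NAC73. The lowest PEAR1 library, at 0.0994 CPM, lay below the level of 3 counts in every NAC73 library (0.154 to 0.219 CPM). In NAC57 that level was 0.0834 to 0.104 CPM, so the gap to this library was not resolved.

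VND7 was found more widely, with a count in 19 of the 21 libraries. It stood at 0.416, 0.174 and 0.278 CPM in NAC57, at 0, 0.291, 0 and 0.0669 CPM in NAC73 and at 0.413, 0.753, 0.145 and 1.00 CPM in CALS7. CVP2-DBOX had 0.0774, 0.267, 0.971 and 1.37 CPM and PEAR1-DBOX 0.583 and 1.05 CPM, against 3.38, 1.44, 1.94 and 1.28 CPM in PEAR1. The lowest PEAR1 library lay above every NAC57, NAC73, CALS7 and PEAR1-DBOX library and below the highest CVP2-DBOX library.

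MYB46 had 0.0347, 0.0579 and 0 CPM in NAC57, 0, 2.77, 1.29 and 0.134 CPM in NAC73 and 0.635, 0.167, 1.37 and 1.32 CPM in CALS7. It had 0.103, 0.776, 0 and 0.0258 CPM in CVP2-DBOX and 0.0265 and 6.98 CPM in PEAR1-DBOX, against 10.2, 0.614, 4.62 and 8.03 CPM in PEAR1. The NAC57 libraries lay wholly below PEAR1, those of NAC73, CALS7 and CVP2-DBOX overlapped PEAR1 2 and no other PEAR1 library, and PEAR1-DBOX 5 lay within the PEAR1 range. MYB83, its close relative, was the most restricted of the 9, with a count in 8 libraries. It was at 0 in all 4 CVP2-DBOX libraries, and PEAR1 had 1.89, 0.165, 2.09 and 0.626 CPM. PEAR1-DBOX 5 had 1.11 CPM, and each of the 3 other libraries with a count, NAC57 2, NAC73 3 and CALS7 4, had 0.116 to 0.265 CPM.

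Among the cellulose synthases, CESA8 was near 0 in NAC57 and NAC73. CESA8 had 0, 0.0868 and 0 CPM in NAC57, 0, 0, 0.0616 and 0 CPM in NAC73 and 0.381, 0.878, 2.59 and 2.50 CPM in CALS7. CVP2-DBOX had 0, 0.0802, 0.316 and 0.155 CPM and PEAR1-DBOX 0 and 5.54 CPM, against 19.4, 1.23, 13.4 and 13.2 CPM in PEAR1. In order of mean from low to high, the lines ran NAC73, NAC57, CVP2-DBOX, CALS7, PEAR1-DBOX and PEAR1. NAC73 and NAC57 overlapped, as did NAC57 and CVP2-DBOX, CALS7 and PEAR1-DBOX, and PEAR1-DBOX and PEAR1, while no CVP2-DBOX library reached the lowest CALS7 library.

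CESA7 had 2.50, 0.723 and 2.31 CPM in NAC57, 0, 0.728, 2.16 and 5.55 CPM in NAC73 and 4.03, 1.17, 0.639 and 1.97 CPM in CALS7. It had 1.52, 5.54, 2.65 and 2.24 CPM in CVP2-DBOX and 8.16 and 8.94 CPM in PEAR1-DBOX, against 23.4, 4.74, 15.1 and 21.7 CPM in PEAR1. CESA4 had 3.74, 4.22 and 4.31 CPM in NAC57, 0, 2.77, 0 and 2.07 CPM in NAC73 and 3.27, 1.42, 4.42 and 3.44 CPM in CALS7. In NAC57, where CESA8 was near 0, CESA4 averaged 4.09 CPM and CESA7 1.84 CPM, and in NAC73 they averaged 1.21 and 2.11 CPM, with CESA4 at 0 in 2 libraries and CESA7 in 1. CESA4 had 3.22, 4.76, 4.86 and 3.04 CPM in CVP2-DBOX and 3.79 and 7.68 CPM in PEAR1-DBOX, against 20.1, 3.80, 10.96 and 9.48 CPM in PEAR1.

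CESA4 and CESA7 share exon bases with neighbours on the opposite strand, and the strand setting of the counting is not stated. AT5G44040 overlaps 65 exon bases at the 3′ end of CESA4 and averaged 56.6 CPM in NAC57, 2.91 CPM in NAC73, 4.39 CPM in CALS7, 179 CPM in CVP2-DBOX, 119 CPM in PEAR1-DBOX and 23.6 CPM in PEAR1. AT5G17410 overlaps 66 exon bases at the 3′ end of CESA7 and averaged 50.2 CPM in NAC57, 30.95 CPM in NAC73 and 15.3 CPM in CALS7. It averaged 46.25 CPM in CVP2-DBOX, 42.3 CPM in PEAR1-DBOX and 27.6 CPM in PEAR1. The part of the overlap in the CESA4 and CESA7 levels was not tested. CESA4 also shares 17 exon bases with AT5G44020 on the same strand. BAG7 overlaps 77 exon bases of VND6 and averaged 174 CPM in NAC57 and 158 CPM in NAC73, where VND6 had 0 counts in all 7 libraries. MYB98, which overlaps 481 exon bases of CESA8, reached at most 1.12 CPM in any library. The non-coding RNA gene AT4G06845 overlaps 81 exon bases of CESA8 on the opposite strand, and its level is not given here.

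The share of CESA8 in the counts of CESA8 and CESA7 together sets the 2 genes side by side within a library. It was 0, 10.7 and 0% in NAC57 and 0, 2.78 and 0% in NAC73 2, 3 and 4, with no count of either gene in NAC73 1. It was 8.63, 42.9, 80.2 and 55.9% in CALS7 and 0, 1.43, 10.7 and 6.45% in CVP2-DBOX. PEAR1-DBOX 3 had 0 of 308 counts, with an exact 95% binomial (Clopper-Pearson) upper bound of 1.19%, and PEAR1-DBOX 5 had 38.3% (34.0 to 42.7), against 45.3, 20.6, 47.2 and 37.8% in PEAR1. The libraries of PEAR1 and those of NAC57, NAC73 and CVP2-DBOX did not overlap in this share. These shares are a description with no test, their intervals cover counting error only, and those of NAC57 and NAC73 rest on few counts. AT5G17410, which shares exon bases with CESA7, was higher in NAC57 and CVP2-DBOX than in CALS7 and PEAR1. The part of that overlap in these shares was not tested.

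**Figure D2:**
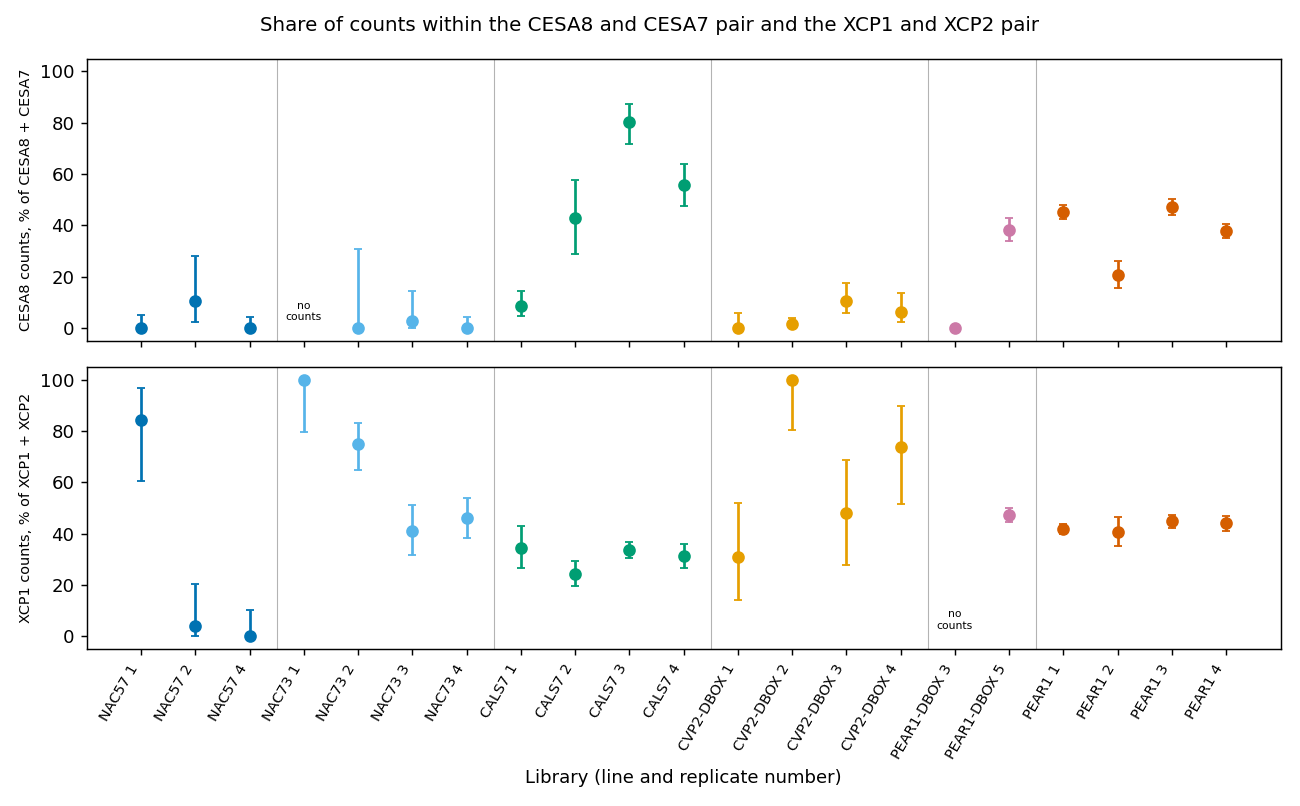
Share of CESA8 in the counts of CESA8 and CESA7, and of XCP1 in those of XCP1 and XCP2, in percent for each library with exact 95% binomial intervals. For CESA8 the PEAR1 libraries sit between 20.6 and 47.2%, and the NAC57, NAC73 and CVP2-DBOX libraries at 10.7% or below. CESA7 shares exon bases with AT5G17410, whose part in the shares was not tested.

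XCP1 had 0.554, 0.0289 and 0 CPM in NAC57, 0.822, 5.17, 2.71 and 5.15 CPM in NAC73 and 1.59, 3.22, 9.41 and 3.41 CPM in CALS7. It had 0.206, 0.455, 0.291 and 0.438 CPM in CVP2-DBOX and 0 and 17.5 CPM in PEAR1-DBOX, against 32.6, 3.02, 17.7 and 14.04 CPM in PEAR1. Levels were lowest in NAC57 and CVP2-DBOX, whose libraries overlapped each other and lay wholly below PEAR1. XCP2 had 0.104, 0.694 and 0.946 CPM in NAC57, 0, 1.75, 3.88 and 6.02 CPM in NAC73 and 3.02, 10.12, 18.5 and 7.54 CPM in CALS7. It had 0.464, 0, 0.316 and 0.155 CPM in CVP2-DBOX and 0 and 19.5 CPM in PEAR1-DBOX, against 45.1, 4.39, 21.7 and 17.9 CPM in PEAR1. CALS7 thus stood between CVP2-DBOX, which it did not overlap for either protease, and PEAR1, which it overlapped. XCP1 made up 34.5, 24.1, 33.7 and 31.2% of the counts of the pair in CALS7, and 42.0, 40.8, 44.8 and 44.0% in PEAR1, a difference in share that was not tested.

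Per kilobase of transcript, XCP2 was the most abundant of the 9 genes in PEAR1, at 16.2 ± 12.3 CPM per kb, followed by XCP1 at 12.6 ± 9.11 CPM per kb (SD, n = 4). CESA7 had 4.77 ± 2.49, MYB46 4.68 ± 3.34, CESA8 3.53 ± 2.27 and CESA4 3.05 ± 1.86 CPM per kb. VND7 had 1.35 ± 0.643, VND6 0.813 ± 0.843 and MYB83 0.681 ± 0.538 CPM per kb. These SD values are the spread over the same 4 libraries for every gene, so they do not measure differences between neighbours in this order. XCP2 had a higher CPM than XCP1 in each PEAR1 library (45.1 and 32.6, 4.39 and 3.02, 21.7 and 17.7, 17.9 and 14.04 CPM). The order itself was not tested.

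In the line labelled NAC57 against PEAR1, 6 of the 9 genes were lower and none was higher: VND6, MYB46, CESA7, CESA8, XCP1 and XCP2. Of all genes tested 34.7% were called, 20.9% lower and 13.8% higher, so 6 of 9 is above the background in that direction. VND6 was at least 35.2-fold lower in NAC57, with 0 against 160 counts (adjusted p = 0.0123, edgeR's quasi-likelihood test, Benjamini-Hochberg). CESA8 was 372-fold lower by 3 against 1692 counts (95% counting interval 127 to 1807, adjusted p = 0.00357), and MYB46 182-fold lower by 3 against 828 counts (62.1 to 885, adjusted p = 0.0164). The log2 change was -6.46 ± 1.69 for XCP1 (SE, adjusted p = 0.00880), -5.24 ± 1.73 for XCP2 (adjusted p = 0.0287) and -3.14 ± 1.07 for CESA7 (adjusted p = 0.0321) in edgeR's test. VND7 (-2.78 ± 1.08, adjusted p = 0.0526), MYB83 (-4.79 ± 2.01, adjusted p = 0.0744) and CESA4 (-1.44 ± 1.01, adjusted p = 0.272) did not pass in edgeR's test.

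For 8 of the 9 genes, all but CESA4, every NAC57 library lay below every PEAR1 library, which was so for 39.4% of all genes tested (23.8% lay wholly above). The median log2 change was -5.24 for the 9 genes (-5.14 with VND6 at its bound) and -0.52 for all genes tested. VND6, CESA8 and XCP1 passed in all 13 other settings and leave-one-out fits. Without NAC57 1, as without NAC57 4, 3 genes were called, since MYB46, CESA7 and XCP2 did not pass. CESA7 also failed without NAC57 2, PEAR1 1, PEAR1 3 or PEAR1 4, with replicate numbers as a block, and with PEAR1 1 and 3 alone (adjusted p up to 0.109). XCP2 also failed without NAC57 2 or PEAR1 1 (adjusted p up to 0.0938).

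In NAC73 against PEAR1, 6 genes were lower and none was higher, while 61.5% of all genes tested were called, 41.5% lower and 20.0% higher. They were VND6, VND7, MYB83 and the 3 cellulose synthases, whereas MYB46 and both proteases did not pass. VND6 was at least 22.8-fold lower in NAC73 (0 against 160 counts, adjusted p = 0.00519, edgeR's quasi-likelihood test, Benjamini-Hochberg), CESA8 724-fold lower by 1 against 1692 counts (129.7 to 28600, adjusted p = 0.000464) and MYB83 37.4-fold lower by 2 against 175 counts (10.2 to 311, adjusted p = 0.0328). The log2 change was -4.52 ± 1.11 for VND7 (adjusted p = 0.00238), -3.21 ± 0.99 for CESA4 (adjusted p = 0.0107) and -2.95 ± 0.95 for CESA7 (adjusted p = 0.0137). MYB46 (-2.49 ± 1.47, adjusted p = 0.143), XCP1 (-2.28 ± 1.20, adjusted p = 0.104) and XCP2 (-2.94 ± 1.37, adjusted p = 0.0698) had lower values without passing edgeR's test. Libraries did not overlap for 5 genes, against 43.8% of all genes tested, and the median change was -3.21 for the 9 genes and -1.19 for all genes. VND6, VND7 and the 3 cellulose synthases passed whichever single library was left out, but in a fit of these 2 lines alone CESA4 (adjusted p = 0.0948, edgeR) and CESA7 (adjusted p = 0.0727) did not pass and VND6 and MYB83 were not tested. CESA7 also did not pass with NAC73 1 and 4 alone (adjusted p = 0.0897, edgeR). MYB83 did not pass without NAC73 1, 2 or 4, or PEAR1 1 or 3 (adjusted p up to 0.0720). It passed the filter on low counts only through PEAR1 and PEAR1-DBOX libraries, so its call as lower here is no separate support.

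In CALS7 against PEAR1, CESA7 alone passed and was lower, with a log2 change of -3.05 ± 0.95 (adjusted p = 0.0162, edgeR's quasi-likelihood test), where 37.9% of all genes tested were called, 23.1% lower and 14.7% higher, so 1 of 9 is not above the background. CESA7 passed in all 14 alternative fits. The other 8 had lower values, between -1.18 (XCP2) and -4.05 (MYB83), with adjusted p from 0.0743 to 0.547 in edgeR's test. VND7 and CESA7 did not overlap between the lines, against 32.2% of all genes. The median was -1.93 for the 9 genes and -0.32 for all genes. Without CALS7 4, MYB83 passed as well. It passed the filter on low counts only through PEAR1 and PEAR1-DBOX libraries, so that call is no separate support.

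In CVP2-DBOX against PEAR1, 5 of 9 genes were lower and none was higher, with 27.4% of all genes tested called, 15.2% lower and 12.2% higher: MYB46, MYB83, CESA8, XCP1 and XCP2. MYB83 was at least 60.5-fold lower in CVP2-DBOX (0 against 175 counts, adjusted p = 0.0110, edgeR's quasi-likelihood test, Benjamini-Hochberg). It passed the filter on low counts only through PEAR1 and PEAR1-DBOX libraries, so its call against PEAR1 is a description and no separate support. The log2 change was -6.55 ± 1.63 for XCP2 (adjusted p = 0.00578), -6.37 ± 1.47 for CESA8 (adjusted p = 0.00313), -5.58 ± 1.40 for XCP1 (adjusted p = 0.00589) and -4.68 ± 1.62 for MYB46 (adjusted p = 0.0376). The VND factors and the other 2 cellulose synthases did not pass, with VND7 at -1.58, CESA4 at -1.48, CESA7 at -2.44 and VND6 at -3.49 and adjusted p from 0.0576 to 0.263 in edgeR's test. For 4 genes no library overlapped, against 25.8% of all genes (24.6% lay wholly above), and the median change was -4.68 for the 9 genes and -0.20 for all genes. MYB46 did not pass without CVP2-DBOX 1, 3 or 4, or PEAR1 1, 3 or 4 (adjusted p up to 0.0966), and the 4 others passed whichever library was left out.

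No gene was called in PEAR1-DBOX against PEAR1, in edgeR's test or in DESeq2, and 0 of the 9 had an unadjusted p under 0.05. Of all genes tested 2.29% were called, 0.886% lower and 1.40% higher. All 9 had lower values in PEAR1-DBOX, from -0.41 ± 1.50 (VND6) to -2.09 ± 1.56 (CESA8) on the log2 scale (SE, adjusted p from 0.557 to 0.923, edgeR), with a median of -0.95 against -0.09 for all genes. VND7 was the only gene without overlap between the lines, against 21.8% of all genes. All 9 genes had a higher value in PEAR1-DBOX 5 than in PEAR1-DBOX 3, by little for CESA7 (8.94 and 8.16 CPM), whereas 5 of the 9 were at 0 in PEAR1-DBOX 3, and for those the line's mean stands for neither library. Against PEAR1, PEAR1-DBOX 3 alone gave 2 calls, CESA8 and XCP1, and PEAR1-DBOX 5 alone gave 0, on the assumption that a lone library varies like those of the other lines.

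**Figure D3:**
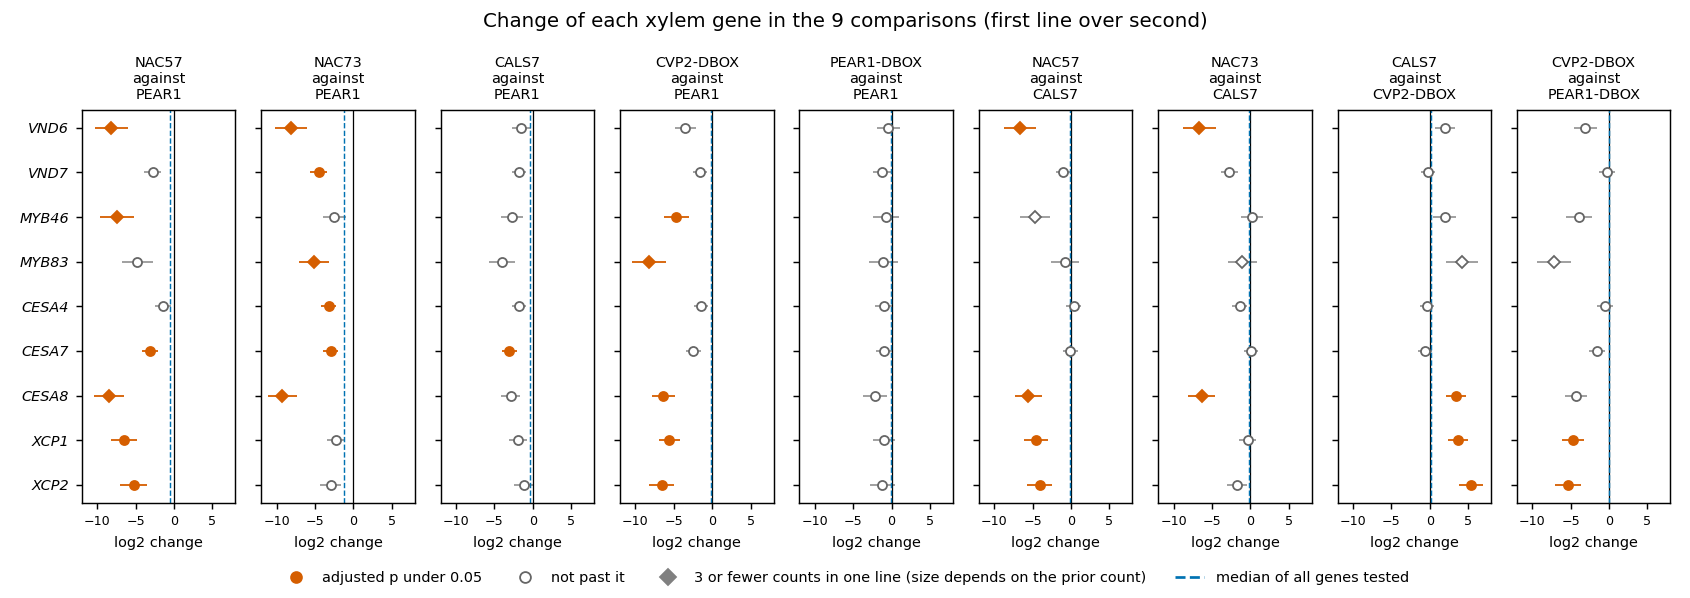
Fitted log2 changes of the 9 genes in the comparisons between lines, with bars for 1 SE, filled symbols for changes past an adjusted p of 0.05 (edgeR), diamonds where a line had 3 or fewer counts, and a dashed line at the median of all genes. CALS7 against CVP2-DBOX is the comparison with called genes on the positive side, and XCP2 is the highest of them at 5.36.

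In NAC57 against CALS7, 4 genes were lower and none was higher, VND6, CESA8, XCP1 and XCP2, with 49.7% of all genes tested called, 25.5% lower and 24.1% higher. VND6 was at least 13.7-fold lower (0 against 51 counts, adjusted p = 0.0189, edgeR's quasi-likelihood test) and CESA8 55.4-fold lower by 3 against 207 counts (18.7 to 271, adjusted p = 0.0148). XCP1 changed by -4.53 ± 1.55 (log2, adjusted p = 0.0237) and XCP2 by -4.06 ± 1.63 (adjusted p = 0.0478). Some calls were lost in fits with fewer libraries while the log2 values kept their sign, at -4.88 or lower for CESA8 and -3.55 or lower for XCP2: the count of called genes was 2 without NAC57 1, 1 without NAC57 2, 0 without NAC57 4 and 2 without CALS7 3, and XCP2 failed also without CALS7 2 or 4 (adjusted p up to 0.130). MYB46 also did not overlap between the lines (31.0-fold lower, 3 against 116 counts, 10.4 to 153, adjusted p = 0.0574), which made 5 of 9 genes, against 22.5% of all genes (30.3% lay wholly above). The median change was -4.06 for the 9 genes (-3.77 with VND6 at its bound) and -0.16 for all genes.

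In NAC73 against CALS7, VND6 and CESA8 were lower, with 35.9% of all genes tested called, 20.3% lower and 15.6% higher, so 2 of 9 is near the background. VND6 was at least 8.84-fold lower (0 against 51 counts, adjusted p = 0.0277, edgeR's quasi-likelihood test) and CESA8 108-fold lower by 1 against 207 counts (19.1 to 4273, adjusted p = 0.0115). CESA8 passed in all 14 alternative fits, and VND6 did not pass without NAC73 1, NAC73 3 or CALS7 3 (adjusted p up to 0.0876). VND7 (-2.72 ± 1.07, adjusted p = 0.0536) passed without NAC73 2 and without CALS7 3. The proteases had changes of -0.35 ± 1.15 (XCP1) and -1.75 ± 1.31 (XCP2), which did not pass. VND6 and CESA8 were also the ones without overlap between the lines, against 12.7% of all genes, and the median was -1.39 for the 9 genes and -0.12 for all genes.

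In CALS7 against CVP2-DBOX, 3 genes were higher and none was lower, with 40.6% of all genes tested called, 16.9% higher and 23.7% lower. XCP2 was higher by 5.36 ± 1.55 on the log2 scale (adjusted p = 0.00934), XCP1 by 3.65 ± 1.29 (adjusted p = 0.0298) and CESA8 by 3.49 ± 1.31 (adjusted p = 0.0401) in edgeR's quasi-likelihood test. The same 3 genes did not overlap between the lines, against 18.1% of all genes that lay wholly above and 27.6% that lay wholly below. XCP2 passed in all 13 alternative fits. CESA8 did not pass without CALS7 3 or 4, or CVP2-DBOX 1, 2 or 4 (adjusted p up to 0.0911), and XCP1 without CALS7 3, or CVP2-DBOX 1, 3 or 4 (adjusted p up to 0.0849). The median change was 1.97 for the 9 genes (1.94 with MYB83 at its bound) and 0.11 for all genes.

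In CVP2-DBOX against PEAR1-DBOX, XCP1 (-4.64 ± 1.44, adjusted p = 0.0410) and XCP2 (-5.35 ± 1.64, adjusted p = 0.0397) were lower in edgeR's quasi-likelihood test, against 8.14% lower and 3.87% higher of all genes tested. Their libraries overlapped, since PEAR1-DBOX 3 was at 0 for both. Without PEAR1-DBOX 5 the only library left, PEAR1-DBOX 3, had 0 counts of both genes, so the fitted sign turned with no size that can be read (adjusted p = 0.229 for XCP1 and 0.4001 for XCP2). Neither gene passed without any 1 of the CVP2-DBOX libraries. Without PEAR1-DBOX 3, which leaves only PEAR1-DBOX 5 in its line, the changes of XCP1 and XCP2 were -5.64 and -6.35. CESA7 alone did not overlap, against 18.9% of all genes that were lower without overlap, and the median change was -3.94 for the 9 genes and -0.01 for all genes. The 9 comparisons share lines, and their values are set side by side only.

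Other genes of the xylem programme were read from lists. The counts of called genes below are to be read against the shares of all genes tested that were lower than in PEAR1, 20.9% in NAC57, 41.5% in NAC73, 23.1% in CALS7, 15.2% in CVP2-DBOX and 0.886% in PEAR1-DBOX, and that were higher, 13.8, 20.0, 14.7, 12.2 and 1.40% in the same order of lines. Of the 5 other VND genes, which can also act in vessel formation, 2 were lower in NAC57 (median -5.67), 2 in NAC73 (median -4.36), 1 in CALS7 (median -2.17), 1 in CVP2-DBOX (median -2.80) and 0 in PEAR1-DBOX (median -1.40) against PEAR1, and none was higher. The counts in NAC73, CALS7 and CVP2-DBOX are near those shares. They were as rare as VND6 and VND7. VND4 averaged 0.0231 CPM in NAC57, 0 CPM in NAC73 and 0.735 CPM in CALS7, against 2.20 CPM in PEAR1, and VND2 0.208, 0 and 0.258 CPM in those 3 lines, against 1.98 CPM in PEAR1. VND3 did not share that pattern in edgeR's test. Its log2 change was -1.86 ± 2.22 in NAC57 against PEAR1 (adjusted p = 0.540) and 1.66 ± 2.02 in NAC73 against CALS7 (adjusted p = 0.542).

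Of 18 tested other regulators of the secondary wall, 12 were lower and 0 higher in NAC57 (median -3.21), 13 lower and 2 higher in NAC73 (median -3.83) and 6 lower and 2 higher in CALS7 (median -1.49), against PEAR1. In CVP2-DBOX 8 were lower and 0 higher (median -2.89), and in PEAR1-DBOX 1 was lower and 0 higher (median -1.44). The lower counts in NAC73, NAC57 and CVP2-DBOX are above the shares of all genes, 41.5, 20.9 and 15.2%. That in CALS7, 6 of 18 against 23.1%, is near its share and is not read as a result. The 2 higher genes in NAC73 and in CALS7 were SND3 and SND2, NAC factors downstream in the wall network. SND2 averaged 503 ± 159 CPM in NAC73, 148 ± 36.9 CPM in CALS7 and 0.498 ± 0.444 CPM in CVP2-DBOX, against 14.3 ± 0.809 CPM in PEAR1. SND2 is the gene NAC073 whose promoter drives the NAC73 reporter. SND3 averaged 681 ± 153 CPM in NAC73 and 321 ± 35.3 CPM in CALS7, against 37.3 ± 6.66 CPM in PEAR1 (log2 changes 4.19 ± 0.43, adjusted p = 2.41e-07, and 3.10 ± 0.41, adjusted p = 1.18e-05, edgeR). VNI2, which binds VND7 and represses its targets, was lower in all 5 lines than in PEAR1, where it averaged 129 ± 23.9 CPM. MYB43, a MYB factor of the same wall network, averaged 11.4 CPM in NAC57, 4.61 CPM in NAC73, 3.10 CPM in CALS7 and 2.70 CPM in CVP2-DBOX, lower in each than the 90.3 ± 38.8 CPM of PEAR1.

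Of 18 genes of cellulose and xylan in the secondary wall, 7 were lower and 1 higher in NAC57 (median -4.15), 8 lower and 2 higher in NAC73 (median -2.82) and 3 lower and 1 higher in CALS7 (median -1.20), against PEAR1. CVP2-DBOX had 5 lower and 0 higher (median -3.29), and PEAR1-DBOX 0 in either direction (median -1.13). The lower count in NAC73 is near the 41.5% of all genes and that in CALS7 below the 23.1%, while those in NAC57 (20.9%) and CVP2-DBOX (15.2%) are above. PARVUS, a glycosyltransferase of xylan synthesis, averaged 2.90 ± 1.42 CPM in CVP2-DBOX, against 50.1 ± 10.7 CPM in PEAR1, with a log2 change of -4.11 ± 0.43 (adjusted p = 2.17e-06, edgeR). IRX14, a xylan backbone enzyme, went the other way, higher in NAC57, NAC73 and CALS7, at 131, 192 and 161 CPM, against 65.4 CPM in PEAR1. In CALS7 against CVP2-DBOX, 4 of the 18 were higher and 0 lower, against 16.9% and 23.7% of all genes.

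Of 15 lignin genes, 6 were lower in NAC57 (median -1.68), 13 in NAC73 (median -4.69), 10 in CALS7 (median -4.58), 13 in CVP2-DBOX (median -4.35) and 0 in PEAR1-DBOX (median -1.67) against PEAR1, and none was higher, against 20.9, 41.5, 23.1, 15.2 and 0.886% of all genes that were lower in those lines. CCoAOMT1, a methyltransferase of lignin synthesis, averaged 563 ± 332 CPM in NAC57, 108 ± 24.8 CPM in NAC73, 49.5 ± 18.5 CPM in CALS7, 25.3 ± 11.7 CPM in CVP2-DBOX and 510 ± 544 CPM in PEAR1-DBOX, against 1469 ± 433 CPM in PEAR1. Against CALS7 the lignin genes had 10 higher and 4 lower in NAC57 (median 2.68), with 24.1% of all genes higher and 25.5% lower, where 4 of the 9 xylem genes were lower and none higher, a difference between lists that was not tested. Of 9 tested genes of xylem cell death, 2 were lower and 1 higher in NAC57 (median -2.23), 2 lower and 3 higher in NAC73 (median 0.34), 2 lower and 2 higher in CALS7 (median 0.32), 4 lower and 0 higher in CVP2-DBOX (median -2.66) and 0 in either direction in PEAR1-DBOX (median -0.32), against PEAR1. The lower counts in NAC57 and CALS7 are near the shares of all genes, 20.9 and 23.1%, and that in NAC73 is below 41.5%. RNS3, a ribonuclease of dying cells, averaged 37.3 ± 19.7 CPM in NAC73, against 5.43 ± 2.90 CPM in PEAR1 (log2 change 2.78 ± 1.10, adjusted p = 0.0375, edgeR).

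The primary wall cellulose synthases are relatives of CESA4, CESA7 and CESA8 that serve growing cells. Of 11 genes of primary wall cellulose synthesis, 8 were higher and 1 lower in NAC73 (median 2.07), 10 higher and 1 lower in CALS7 (median 1.59), 0 higher and 6 lower in CVP2-DBOX (median -0.66) and 0 in either direction in PEAR1-DBOX (median -0.58), against PEAR1. Of all genes 20.0% were higher in NAC73 and 14.7% in CALS7, and 15.2% were lower in CVP2-DBOX, where 5 of the 9 xylem genes were lower too. CESA6 averaged 2943 ± 1013 CPM in NAC73, 1966 ± 190.0 CPM in CALS7 and 197 ± 23.0 CPM in CVP2-DBOX, against 443 ± 49.9 CPM in PEAR1. In NAC57 against PEAR1, 2 were higher and 0 lower under TMM scaling, and 0 higher and 1 lower under the size factors of DESeq2, so no direction is given there. Of 6 genes of wall patterning, 3 were higher and 1 lower in NAC57, 2 higher and 3 lower in NAC73, 3 higher and 2 lower in CALS7, 3 higher and 2 lower in CVP2-DBOX and 0 higher and 1 lower in PEAR1-DBOX, against PEAR1, with medians of -0.39, -1.40, 0.16, -1.11 and -1.28. Of all genes 13.8, 20.0, 14.7, 12.2 and 1.40% were higher in those lines and 20.9, 41.5, 23.1, 15.2 and 0.886% lower. The microtubule protein MAP70-5 averaged 52.5 ± 22.7 CPM in NAC57 and 1.46 ± 0.908 CPM in CVP2-DBOX, against 244.6 ± 46.6 CPM in PEAR1, while MAP70-1 was higher in NAC57, NAC73, CALS7 and CVP2-DBOX than in PEAR1.

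Genes with a pattern like that of each role were named by Pearson's r of log2(CPM + 1) over the 21 libraries, as a description, since all points share libraries and depth. TBL33, a trichome birefringence-like protein, had r of 0.913 with the VND pair, 0.919 with the MYB pair, 0.903 with the CESA genes and 0.848 with the XCP pair, and it was the only one of 13 genes named under all 4 roles. PGSIP1, a glucuronyltransferase of xylan, had r of 0.926 with the MYB pair, 0.882 with the CESA genes and 0.859 with the XCP pair. LAC10, a laccase, had 0.912 with the MYB pair, and AGAL2 had 0.885 with the XCP pair. All 13 genes had their highest line mean in PEAR1, 9 were at 0 in every NAC73 library and 8 at 0 in PEAR1-DBOX 3. They were picked by r with the 9 genes over these same libraries, so this likeness is no separate support.

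**Figure D4:**
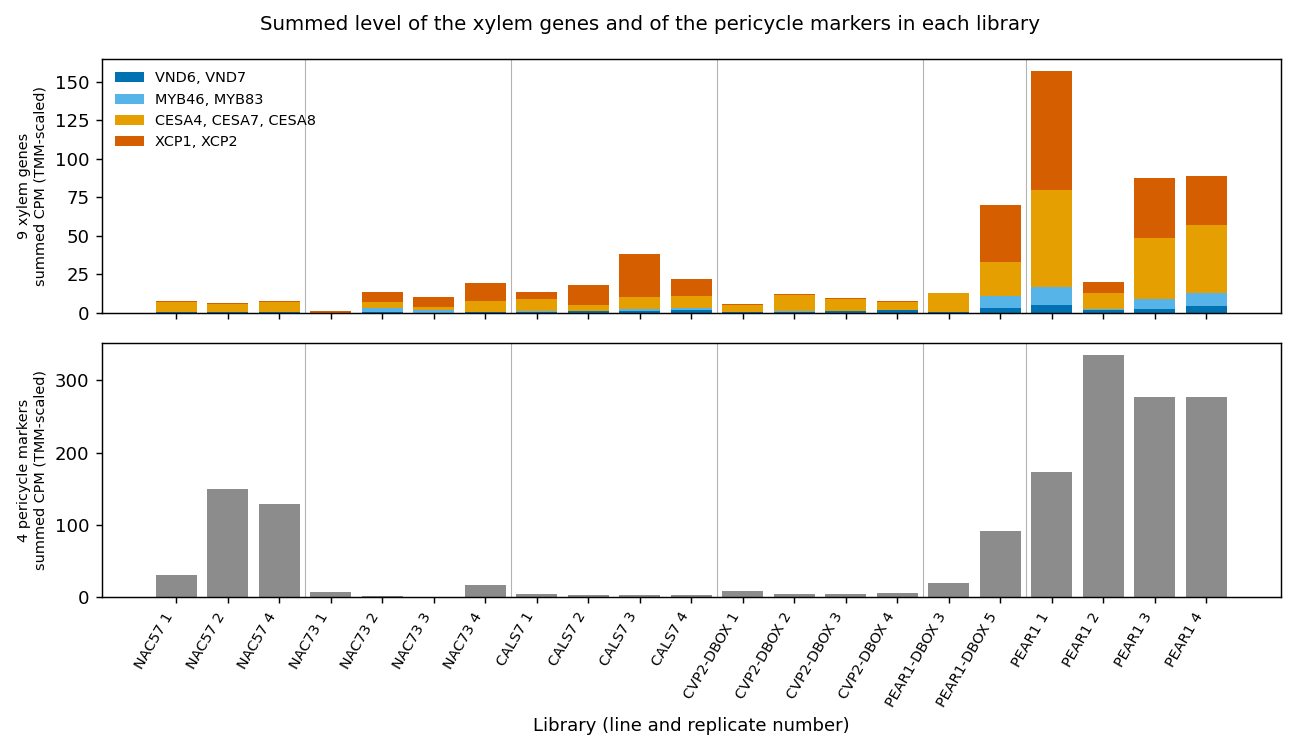
Summed TMM-scaled CPM of the 9 genes, stacked by role (top), and of the 4 pericycle markers (bottom), in each library. PEAR1 2 has the lowest sum of the 9 genes in its line, 19.8 CPM, and the highest pericycle sum, 334.5 CPM.

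Summed levels of markers of other cell types differed between lines for some of the types. The 4 pericycle markers PHO1, SKOR, LBD16 and GATA23 mark the cell layer that encloses the vascular cylinder, and their summed level was 31.2 to 149.9 CPM in NAC57, 0.0616 to 16.7 CPM in NAC73, 2.64 to 4.45 CPM in CALS7 and 4.13 to 8.72 CPM in CVP2-DBOX. PEAR1-DBOX 3 and 5 had 19.5 and 90.9 CPM, against 173 to 334.5 CPM in PEAR1, where all 4 had counts in every library. In NAC57 the sum was mostly PHO1 (101 ± 62.3 CPM), the only one of the 4 that passed as higher in NAC57 than in CALS7 (log2 change 5.86 ± 1.20, adjusted p = 0.000973, edgeR). Against PEAR1, 0 of the 4 passed in NAC57 and in PEAR1-DBOX, so their lower sums there are not called differences. In NAC73 and in CALS7 2 were lower, in CVP2-DBOX 3 were lower, and 0 were higher in any line. Of all genes 41.5, 23.1 and 15.2% were lower in those 3 lines. The part of pericycle cells in the levels of the 9 genes was not tested. Endodermis markers summed to 2.52 to 64.6 CPM over all libraries, with 15.5, 9.51, 29.0 and 64.6 CPM in PEAR1, and their part was not tested. Of these 9 markers, 1 was lower in CVP2-DBOX than in PEAR1, and 0 passed in each other line. Epidermis and root hair markers summed to 2.41, 320.7, 4.24 and 27.5 CPM in CALS7 and 8.75, 112.6, 16.3 and 44.8 CPM in PEAR1, and their part was not tested either. Of these 8 markers, 0 passed in CALS7 and in PEAR1-DBOX against PEAR1. In NAC57 and in NAC73 2 were lower, in CVP2-DBOX 4 were lower, and 0 were higher. Procambium markers summed to 68.6 to 94.7 CPM in NAC57, 318 to 570 CPM in NAC73, 262.5 to 375.5 CPM in CALS7, 114 to 147 CPM in CVP2-DBOX and 211 to 216 CPM in PEAR1-DBOX, against 102 to 154 CPM in PEAR1. Of the 6 tested, 2 were higher and 2 lower than in PEAR1 in both NAC73 (median log2 change -1.82) and CALS7 (median -0.90). Of all genes 20.0% were higher and 41.5% lower in NAC73, and 14.7% and 23.1% in CALS7. The higher procambium sums thus do not stand for each marker. Companion cell markers summed to 344.5 to 454 CPM in NAC57, 1195 to 2205 CPM in NAC73, 997 to 1415 CPM in CALS7, 88.4 to 123.5 CPM in CVP2-DBOX and 104 to 257 CPM in PEAR1-DBOX, against 141.5 to 192 CPM in PEAR1. Of these 6 markers, 1 was higher and 2 lower in NAC73 than in PEAR1 (median log2 change -1.60). In CALS7 1 was higher and 1 lower (median -2.32), so the higher sums do not stand for most of these markers. Root cap markers summed to at most 54.6 CPM in any library, and 0 of the 4 passed against PEAR1 in any line. The part of these cell types was not tested.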

How the data were processed

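RNA of sorted root protoplasts from 6 reporter lines was sequenced in 21 libraries, with cDNA amplified by 18 cycles of PCR and reads of 50 bases, per the labels. The deposited files hold the authors' raw read counts per gene, 1 table per library and with no normalisation, for 33602 genes. Bowtie2, featureCounts, edgeR and the TAIR10 build are named in the submitters' processing notes, with versions and the strand setting not given in the sources used here. Gene positions and sequences came from RefSeq TAIR10.1.

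The counts were fitted in 1 model over all libraries in edgeR 4.0.16 (limma 3.58.1, R 4.3.3) in which every line had its own mean. Scaling was by TMM, low genes were dropped by filterByExpr, and quasi-likelihood F tests were adjusted by Benjamini-Hochberg over 26074 genes at 0.05. The common dispersion was 0.377. Levels are printed as CPM and their SD, and differences between lines as log2 values and their SE. For a gene with 0 counts in 1 of the lines, the printed fold is a bound against 3 counts over the line. For 1 to 3 counts the fold has a 95% exact binomial counting interval. Reads carry no molecular identifiers, so intervals and bounds cover counting error only. Python 3.11.15, pandas 2.3.3 and matplotlib 3.10.9 made the summaries and plots. The scripts were tested on simulated data.

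The 9 genes, the lists and the comparisons were chosen with earlier results of these data known. Besides the 9 genes, the text names up to 4 genes of a list, those with the highest mean CPM over the 21 libraries and a symbol in the reference, and for each role the 5 genes with a symbol and the highest r. Alternatives were DESeq2 1.42.0, its size factors in edgeR, no filter, a fit of the compared lines alone, replicate numbers as a block, and each library left out. Same-numbered libraries did not deviate together, with r from -0.26 to 0.33 over 40 pairs and 5 pairs over 0.1. No 2 libraries of the same line agreed within counting noise, and pairs between lines were not compared. No protein sequences were used.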

Additional observations from a re-analysis of the deposited data

How the results depend on the processing

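Of 29 called changes of the 9 genes, 13 stayed past the threshold in every alternative that gave them an adjusted p. Among these, VND6 in NAC73 against PEAR1 had values in 14 alternatives, where CESA8 had 15. MYB83 in CVP2-DBOX against PEAR1 had values in 13, where CESA8 had 14. Since MYB83 passed the filter on low counts only through PEAR1 and PEAR1-DBOX libraries, its place among these changes is no separate support. Of 384 values of these changes under alternatives, 310 kept direction and call, 70 lost the call and 4 reversed. Leaving out 1 library at a time, the number of genes called ranged from 3 to 6 in NAC57 against PEAR1, 1 to 2 in CALS7 against PEAR1, 0 to 2 in PEAR1-DBOX against PEAR1, 0 to 4 in NAC57 against CALS7, 1 to 3 in NAC73 against CALS7, 1 to 3 in CALS7 against CVP2-DBOX and 0 to 4 in CVP2-DBOX against PEAR1-DBOX, where 4 came without PEAR1-DBOX 3. A fit of the compared lines alone, which tests fewer genes on fewer libraries, called 3 in NAC73 against PEAR1, 4 in CALS7 against PEAR1, 1 in NAC73 against CALS7 and 0 in CVP2-DBOX against PEAR1-DBOX, where the fit with no filter also called 0.

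Replicate numbers entered as a block called 2 genes in CALS7 against PEAR1, 1 in PEAR1-DBOX against PEAR1 and 0 in CVP2-DBOX against PEAR1-DBOX, where XCP1 reversed to 6.86 (adjusted p = 0.295) and XCP2 to 6.38 (adjusted p = 0.430, edgeR). The numbers did not pair the libraries, and number 5 occurs only in PEAR1-DBOX, so the block leaves PEAR1-DBOX 3 alone, which had 0 counts of both genes. Without PEAR1-DBOX 3 and 5 in turn, XCP1 ran from -5.64 to 6.48 and XCP2 from -6.35 to 5.92. The positive values are fitted against 0 counts, depend on the prior count and are no measure of size. With the size factors of DESeq2, the 9 comparisons called 7, 6, 1, 6, 0, 5, 3, 3 and 2 of the 9 genes, in the order of the report. CESA4 in NAC57 was 3.46 CPM under them. Added after seeing the data, PEAR1 1 and 3 alone called 5, 6, 1, 4 and 0 genes in the comparisons with PEAR1, and NAC73 1 and 4 alone called 5 against PEAR1 and 2 against CALS7.

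Over all genes, the fit of the compared lines alone called 13817 genes in NAC57 against PEAR1 (9046 in the model of all lines), 10493 in NAC73 against PEAR1 (16043), 12594 in CVP2-DBOX against PEAR1 (7142), 2419 in PEAR1-DBOX against PEAR1 (597) and 2257 in NAC73 against CALS7 (9363). Leaving out 1 library gave 5306 to 5730 in NAC57 against PEAR1 without a NAC57 library, 30 to 1543 in PEAR1-DBOX against PEAR1 and 1458 in CVP2-DBOX against PEAR1-DBOX (3130) without PEAR1-DBOX 5. The block gave 1161 and 828 in the last 2, DESeq2 1887 in the first of them, and PEAR1 1 and 3 alone 26 there and 4394 in NAC57 against PEAR1. With the size factors of DESeq2, the share of called genes that were higher was 19.9% (TMM 39.9%) in NAC57 against PEAR1, 45.8% (61.3%) in PEAR1-DBOX against PEAR1 and 33.1% (48.6%) in NAC57 against CALS7. The median of all genes then moved to -0.82 from -0.52 under TMM in NAC57 against PEAR1, to -0.58 from -0.16 in NAC57 against CALS7, to 0.36 from 0.11 in CALS7 against CVP2-DBOX, to -0.33 from -0.20 in CVP2-DBOX against PEAR1, to -0.21 from -0.09 in PEAR1-DBOX against PEAR1, to -0.20 from -0.32 in CALS7 against PEAR1 and to -0.28 from -0.12 in NAC73 against CALS7. At these depths 3 counts are 0.154 to 0.219 CPM in NAC73 libraries and 0.0708 to 0.125 CPM in those of the other lines. Levels of VND6 and MYB83 near those values were not resolved.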
